A study of Homo sapiens with 20 samples.

Results

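CTCF sites lost upon STAG2 KD were 2418 of the 135421 places at which CTCF was found in M14 cells, an established human melanoma line. The peaks of the 4 CTCF lists on chromosomes 1 to 22 and X were merged into union sites where they overlapped by at least 1 bp, and members were chosen by the presence of a CTCF peak in the WT list of each replicate and its absence from each STAG2-KD list. The lost sites made up 3.11% of the 77641 sites found in both WT lists. A further 5718 of these sites kept a peak in 1 STAG2-KD list, and 69505 were retained in all 4 lists. In the opposite direction, 1530 sites were gained (both STAG2-KD lists, no WT list), or 1.92% of the 79577 sites found in both STAG2-KD lists. Since presence and absence of CTCF chose these sites, their CTCF values are given as a description and were not tested.

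ChIP-seq was performed with antibodies against CTCF and 3 subunits of cohesin, STAG2, STAG1 and SMC1A. Per the study's methods and the labels of replicate 1, all groups were M14 cells with a doxycycline-inducible shRNA against STAG2, a stable population and not a knockout, and the WT groups were the same cells grown without doxycycline. Doxycycline was given for 5 d in the STAG2-KD libraries of replicate 1, while the labels of replicate 2 name the genotype alone. WT and STAG2-KD cells gave 2 libraries each per antibody, and within a replicate all antibodies of a condition shared an input library.

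CTCF is a zinc finger protein that binds a long, partly degenerate DNA motif, and cohesin rings that travel along chromatin tend to stop at it. STAG2 and STAG1 are alternative subunits of the ring that help it bind DNA and contact CTCF, and SMC1A is a core part of the ring with either of them. CTCF sites with cohesin often form the ends of chromatin loops and domains, while CTCF alone can occupy DNA without cohesin.

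Sequences of 10 lost sites were chosen as examples of the DNA under WT CTCF peaks that were lost. The core motif searched was CC, 3 of any base, AG, 2 of any base and GGC, on either strand and within 100 bp of the WT summit, and it is in capitals where it was found. The first 7 sites held it, and the last 3 did not and are shown about their summit. Among all lost sites only 13.3% held the core, so these examples are not typical in that respect. Each is 81 bp of the hg19 reference, outside annotated exons, on the strand that reads the core from left to right.
MEG3 promoter, chr14:101294536-101294616 (- strand): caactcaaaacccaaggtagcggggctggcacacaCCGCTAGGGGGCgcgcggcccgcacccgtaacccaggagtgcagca
GRB10 intron, chr7:50696366-50696446 (- strand): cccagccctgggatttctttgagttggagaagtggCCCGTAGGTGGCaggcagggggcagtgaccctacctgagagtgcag
GRIK3 intron, chr1:37448048-37448128 (+ strand): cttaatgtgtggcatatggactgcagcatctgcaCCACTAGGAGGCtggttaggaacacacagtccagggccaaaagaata
RARB intron, chr3:25543881-25543961 (- strand): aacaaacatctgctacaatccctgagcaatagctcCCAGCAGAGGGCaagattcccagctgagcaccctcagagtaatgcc
HOXC4 and HOXC6 intron, chr12:54420076-54420156 (- strand): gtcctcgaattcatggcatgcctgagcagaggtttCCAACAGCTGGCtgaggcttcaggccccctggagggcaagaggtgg
Intergenic site of chromosome 18, chr18:57742840-57742920 (+ strand): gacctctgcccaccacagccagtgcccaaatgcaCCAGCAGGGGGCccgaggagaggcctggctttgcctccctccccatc
FIGN promoter, chr2:164593402-164593482 (+ strand): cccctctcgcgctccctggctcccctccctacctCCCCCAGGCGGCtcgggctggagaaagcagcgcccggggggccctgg
TCF20 intron, chr22:42705223-42705303 (+ strand): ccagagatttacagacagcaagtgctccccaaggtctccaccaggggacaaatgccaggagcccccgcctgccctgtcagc
MITF intron, chr3:69942252-69942332 (+ strand): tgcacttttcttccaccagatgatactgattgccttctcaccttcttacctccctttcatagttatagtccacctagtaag
ENSG00000258077 intron, chr12:76230684-76230764 (+ strand): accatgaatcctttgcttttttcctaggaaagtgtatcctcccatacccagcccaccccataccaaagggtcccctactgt
The MEG3 site lay in the promoter of an imprinted noncoding RNA gene, 0.815 kb from a transcript start, and had a fold enrichment of 4.22 in WT replicate 1 and 3.25 in WT replicate 2, where 7 and 9 reads covered the summit. This site was among the weakest lost sites, and no cohesin list had a peak there. The FIGN site, in the promoter of a gene for a microtubule-severing enzyme, had fold enrichments of 6.62 and 5.96 and a peak in all 12 cohesin lists.

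Lost sites were weak CTCF sites in WT cells. The median fold enrichment over background was 4.77 in WT replicate 1, with quartiles of 4.22 and 5.46, and 4.08 in WT replicate 2, with quartiles of 3.49 and 4.87. Retained sites had medians of 20.1 and 19.7. By the read pileups that the fold and p-value of a peak imply, a median of 9 reads covered the summit of a lost site in WT replicate 1, over a median background of 1 read, and 14 reads over 2.38 in WT replicate 2. The strongest lost summits had 28 and 67 reads. The lost sites were also narrow, with a median width of 309 bp against 987 bp for retained and 299 bp for gained sites.

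Strength was compared between lists as the percentile of a peak by p-value within its own list, since the thresholds of the 2 replicates differed. The median lost site stood at percentile 11.4 in WT replicate 1 and 27.7 in WT replicate 2, a mean of 19.6 ± 11.5 (SD, n = 2). No lost site stood above percentile 42.5 in WT replicate 1 or 66.8 in WT replicate 2. Of the sites in both WT lists whose mean percentile was under 10, 47.2% were lost, and of those between 10 and 20, 29.7%. The share was 11.6% between 20 and 30, 2.95% between 30 and 40 and 0.307% between 40 and 50. No site of the 48593 above percentile 50 was lost. Just outside the rule, 5581 of the 5718 sites with a peak in 1 STAG2-KD list had it in replicate 2 and 137 in replicate 1, and those peaks had a median fold of 3.82 and 5.61. Their lowest −log10 q-value was 0.432 in replicate 2 and 2.06 in replicate 1, which is where these lists end, and the weakest lost site had 0.511 and 2 in the WT lists. A site could therefore be called lost when its signal passed just under such a limit, and the signal of a lost site in the STAG2-KD libraries was not measured. Of the 2418 lost sites, 2160 had no STAG2-KD CTCF peak within 500 bp, and the others had one close by. Depth was not counted but inferred from the lowest background among the peaks, assuming equal read extension for both conditions of a replicate. On this basis the STAG2-KD CTCF libraries were deeper than the WT ones, by 7.18% in replicate 1 and 2.93% in replicate 2. The lengths of the CTCF lists differed in direction. The STAG2-KD list was the longer of replicate 1, with 88575 peaks against 86248, and the shorter of replicate 2, with 115435 against 122299.

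**Figure D1:**
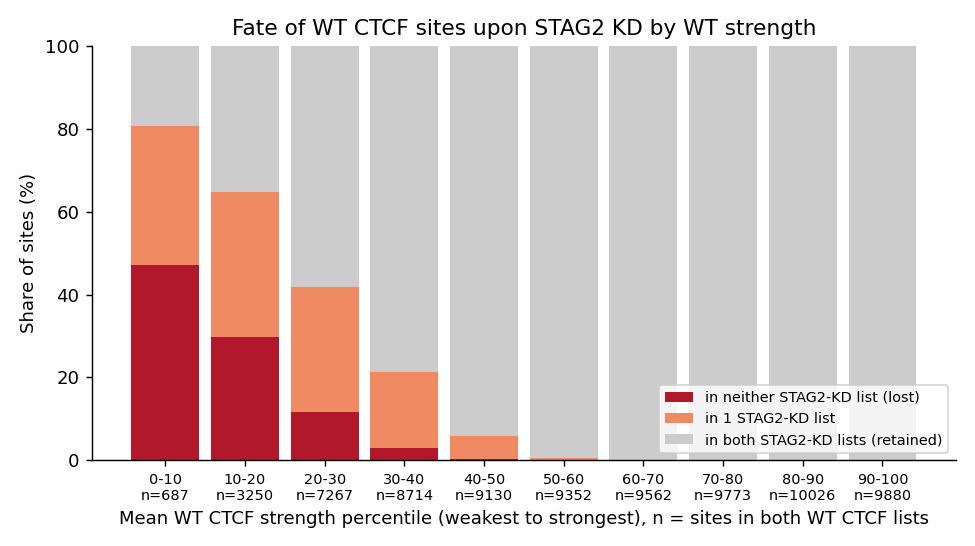
Share of the sites in both WT CTCF lists (y axis, %) that were in neither, 1 or both STAG2-KD lists, in bins of the mean WT strength percentile (x axis, with the number of sites). The lost share fell from 47.2% in the weakest bin to 0.307% between percentiles 40 and 50, and no site above percentile 50 was lost.

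The 10 strongest lost sites lay on 7 chromosomes and differed in their cohesin. The strongest lay between genes on chr3:150091739-150092484, with a fold of 6.94 and 12.5 in the WT lists. STAG2, at percentiles 50.8 and 72 in WT, was absent from both STAG2-KD lists there, and so was SMC1A, at percentiles 36.8 and 72 in WT. STAG1 was in both WT lists and, of the STAG2-KD lists, in that of replicate 2 alone. An intergenic site nearest CCDC190, at chr1:162854551-162855085, had folds of 9.79 and 7.56 and a peak in 9 cohesin lists. An intron of TCF20, a transcriptional coregulator gene, held a site of folds 11.1 and 6.82 with 20 reads in each WT library, and no cohesin list had a peak there. The promoter of BIRC5, which encodes the apoptosis inhibitor survivin, held a site of folds 8.8 and 7.24 that lay 0.188 kb from a transcript start, and STAG2 was found there in all 4 lists. A site in RARB, the retinoic acid receptor beta gene, had folds of 7.99 and 7.05 and a single cohesin peak, of SMC1A in WT replicate 2. A site in GRIK3, a glutamate receptor gene, had folds of 8.44 and 9.1 and cohesin in 2 lists, STAG2 and SMC1A of WT replicate 2. SEPTIN9, a cytoskeletal GTPase gene, held lost sites at different promoters, and the stronger had folds of 8.97 and 6.85. Among these 10 sites, 4 held the core motif.

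Most lost sites had no cohesin. Of the 2418 sites, 1379, or 57%, had no peak in any of the 12 STAG2, STAG1 and SMC1A lists, against 5.58% of the retained sites. Since weak CTCF sites in general hold less cohesin, the retained sites were also weighted to the lost sites' bins of WT strength, 10 percentile points wide. The weakest bin held 324 lost and 132 retained sites, and a difference in strength within a bin was not tested. In this standardised form 23.8% of retained sites lacked cohesin in every list. At the other end, 48 lost sites, or 1.99%, had a peak in all 12 lists, against 54% of retained sites and 7.65% after standardisation. Of gained sites 39.7% were in no list and 1.7% in all.

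**Figure D2:**
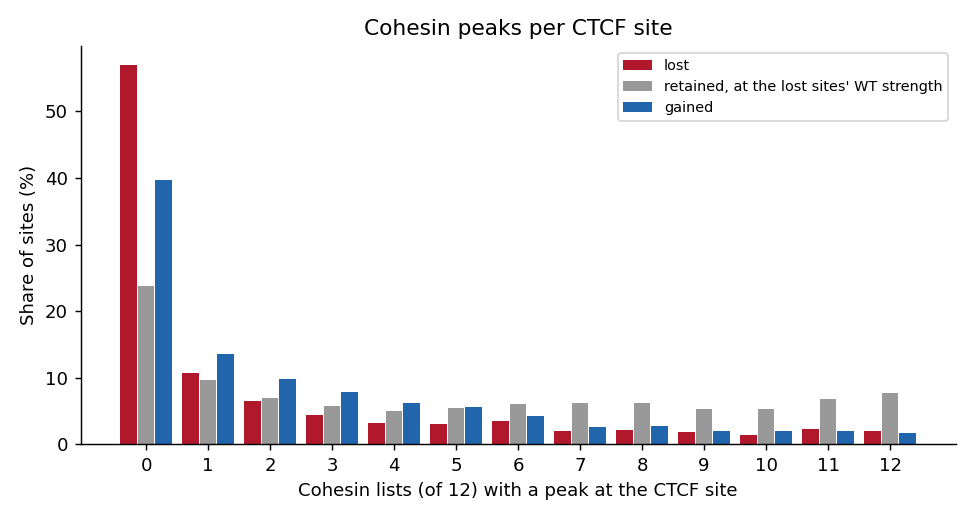
Share of CTCF sites (y axis, %) by the number of the 12 cohesin lists with a peak there (x axis), for lost sites, retained sites weighted to the lost sites' WT strength, and gained sites. The bar at 0 lists was 57% for lost, 23.8% for retained and 39.7% for gained sites.

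STAG2, the target of the knockdown, was found at 14.3% of lost sites in WT replicate 1 and 31.1% in WT replicate 2. In STAG2-KD cells its share was 5.83% and 18.4%, so within replicate 1 it fell by 8.48 and within replicate 2 it fell by 12.7 percentage points. The mean was 22.7% ± 11.9 in WT and 12.1% ± 8.89 in STAG2-KD (SD, n = 2), and the groups overlapped because the replicates differed more than the conditions (two-sided exact permutation test, p = 0.667, adjusted p = 1 over 3 antibodies). With 2 libraries against 2 this test cannot go below 0.333, and it does not use the pairing within a replicate. An exact sign-flip test of the 2 within-replicate differences gave p = 0.5, the smallest it allows, so neither test can decide. As a check of the knockdown, the STAG2 lists as a whole had 79048 peaks in WT and 58418 in STAG2-KD cells in replicate 1, and 118984 and 106135 in replicate 2.

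STAG1, the paralog that can take the place of STAG2 in the ring, was found at 7.24% and 18.8% of lost sites in WT and at 9.39% and 17.4% in STAG2-KD cells. It was higher in STAG2-KD in replicate 1 and lower in replicate 2, and the mean difference was 0.352 ± 2.54 percentage points (SD, n = 2, exact permutation p = 1, adjusted p = 1). SMC1A, which reports the ring with either STAG protein, was at 12.5% and 27.7% in WT and at 11.5% and 22.5% in STAG2-KD cells. Its difference was −3.06 ± 2.92 percentage points (SD, n = 2, exact permutation p = 0.667, adjusted p = 1), and the groups overlapped.

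Retained sites, weighted to the lost sites' bins of WT strength, had higher shares than lost sites in every library. A difference in strength within a bin was not tested. After standardisation STAG1 was at 19.6% and 48.1% of retained sites in WT and at 39.6% and 51.8% in STAG2-KD cells, and SMC1A was at 27.5% and 51.7% in WT and at 35.7% and 60.2% in STAG2-KD cells. Both were higher in STAG2-KD within each replicate. The share at lost sites minus that at standardised retained sites was −20.8 ± 12 percentage points in WT and −32.3 ± 2.96 in STAG2-KD for STAG1, and −19.5 ± 6.39 and −30.9 ± 9.51 for SMC1A (SD, n = 2). For both antibodies each STAG2-KD library was below each WT library, with the smallest p that 2 against 2 allows (exact permutation p = 0.333, adjusted p = 0.5 over 3). The nearest libraries were −29.3 in WT and −30.2 in STAG2-KD for STAG1, and −24 and −24.2 for SMC1A. The rule chose lost sites for absence from the STAG2-KD CTCF lists and retained sites for presence, and the weighting used WT strength alone. This test therefore cannot separate a change upon STAG2 KD from that choice of sites. For STAG2 this difference was −18 ± 4.97 in WT and −22.6 ± 11.8 in STAG2-KD (SD, n = 2, exact permutation p = 1), and the groups overlapped. Gained sites, which the same lists chose in the opposite direction, had STAG1 at 4.18% and 26.3% in WT and at 23.7% and 32.2% in STAG2-KD cells.

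**Figure D3:**
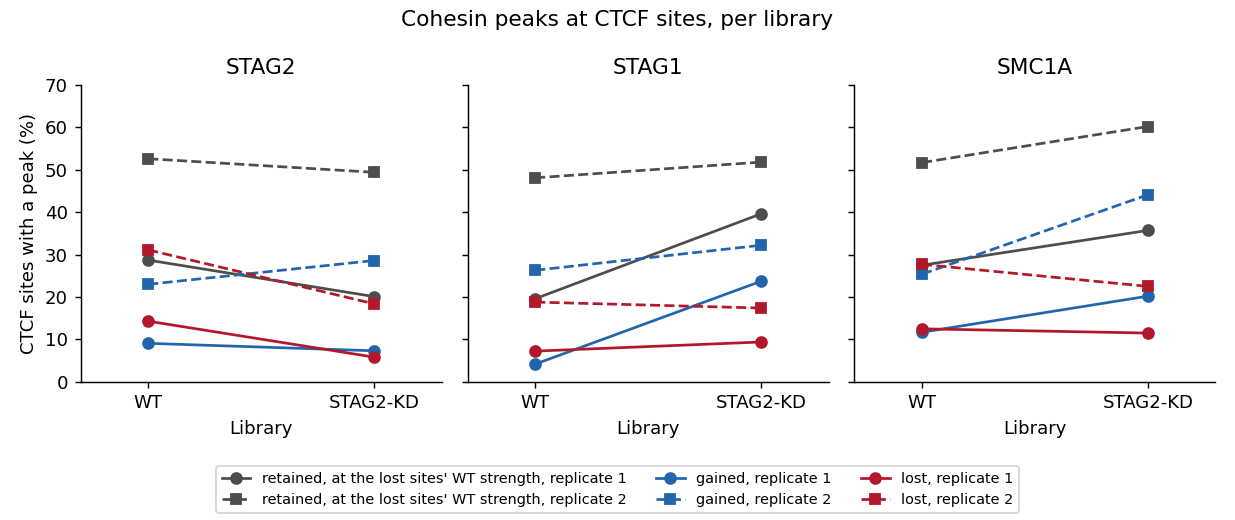
Share of CTCF sites with a STAG2, STAG1 or SMC1A peak (y axis, %) in each WT and STAG2-KD library (x axis), with a line for each replicate and no error bars, since each point is 1 library. Lost sites lay below the retained sites weighted to the lost sites' bins of WT strength in all 12 libraries, and the 2 replicates stood apart.

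Counted site by site, the share of cohesin peaks missing upon STAG2 KD was larger where CTCF was lost than where it was retained. STAG2 was in both WT lists at 343 lost sites, and at 77 of them, or 22.4%, no STAG2-KD list had it. Over all union sites with STAG2 in both WT lists 3.05% lost it in this way. Because STAG2 peaks at lost sites were weaker, at a median percentile of 42.5 against 71.8, the retained sites were weighted to the same STAG2 strength, and 8.22% of them lost STAG2. STAG1 was lost at 27 of 172 sites, or 15.7%, against 0.898% over all union sites and 4.31% of retained sites of equal STAG1 strength. SMC1A was lost at 26 of 300 sites, or 8.67%, against 1.19% and 2.53%. Sites kept in 1 STAG2-KD CTCF list, without weighting, lost STAG2 at 10.4%, STAG1 at 4.2% and SMC1A at 7.25%, so for SMC1A they were close to the lost sites. The rule chose lost sites for absence from the STAG2-KD CTCF lists, and these shares cannot be separated from that choice. These are counts of sites within the same 4 libraries per antibody and were not tested. The STAG2-KD lists of all antibodies in a replicate share an input, and the part of that input in such shared absences was not tested.

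Cohesin was still found upon STAG2 KD at part of these places. Among lost sites with the subunit in both WT lists, STAG2 was still in both STAG2-KD lists at 118, or 34.4%, STAG1 at 108, or 62.8%, and SMC1A at 221, or 73.7%. Retained sites weighted to the same strength of the subunit's own peak kept it at 52.5%, 87% and 83.3%, higher for each subunit, and all union sites at 77.7%, 96.4% and 91.9%. Sites kept in 1 STAG2-KD CTCF list, without weighting, kept the subunit at 35.8%, 77.1% and 71.1%. For STAG2 and SMC1A the lost sites were close to these, so lower retention was not particular to lost sites. Counting all 3 subunits together, 656 of the 2418 lost sites, or 27.1%, had cohesin in a WT and in a STAG2-KD list. A further 295, or 12.2%, had it in a WT list alone and 88, or 3.64%, in a STAG2-KD list alone. Without weighting for strength, these shares were 90.1%, 2.37% and 1.98% at retained sites and 56.3%, 9.15% and 4.97% at sites kept in 1 STAG2-KD list. At gained sites they were 38%, 3.07% and 19.2%. At 0 lost sites were STAG2, STAG1 and SMC1A each present in both WT lists and absent from both STAG2-KD lists. This was rare elsewhere too, at 8 of 69505 retained sites, or 0.0115%, so the 0 does not set the lost sites apart. STAG1 and SMC1A were both in the 2 STAG2-KD lists at 137 sites, or 5.67%, where CTCF had no peak. The same pattern was at 68.6% of retained sites, 10.3% of sites kept in 1 STAG2-KD list and 9.35% of gained sites, without weighting for strength.

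The strongest of these 137 sites included the FIGN promoter and a site between genes near CABLES1, a cyclin-dependent kinase regulator gene, with CTCF folds of 6.66 and 5.36 in WT. At CABLES1 STAG2 stood at percentiles 48.8 and 59.5 in WT and at 4.58 and 59.6 in STAG2-KD cells. At an exon of YPEL2, at chr17:57433355-57433888, SMC1A stood at percentiles 51 and 73.9 in WT and 47.1 and 63.5 in STAG2-KD cells, while STAG2 was missing in STAG2-KD replicate 1. The CYB5D2 promoter held STAG1 at nearly equal percentiles, 56.5 and 73.5 in WT and 56.4 and 74.3 in STAG2-KD. An intron of the noncoding gene ENSG00000258077 at chr12:76230625-76231031, whose sequence has no core motif, had all 12 cohesin peaks, with STAG2 at 71.8 and 86.7 in WT and at 50.7 and 75.6 in STAG2-KD. Promoter sites in ZBED5-AS1 (nearest start of ENSG00000289919), PPP2R5B and SEPTIN9, an exon of FMNL2 and a site near the pseudogene RPL12P42 completed the list.

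The presence of cohesin in WT cells, which the rule did not use, went with a smaller share of lost CTCF sites in bins of like CTCF strength. Between percentiles 10 and 20, 40.6% of 1508 sites without a WT cohesin peak were lost, 23.7% of 969 sites with 1 to 3 of the 6 WT cohesin lists and 15.8% of 773 sites with 4 to 6. Between 20 and 30 these shares were 19.8%, 8.49% and 5.71%, and between 30 and 40 they were 6.2%, 2.65% and 1.19%. Under percentile 10 the share was 58.5% without cohesin, and 33.1% and 33.8% with it. The order of sites without cohesin first held in all 5 bins up to percentile 50, while the last bin had 28 lost sites. The bins are wide, and a difference in strength within a bin was not tested.

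**Figure D4:**
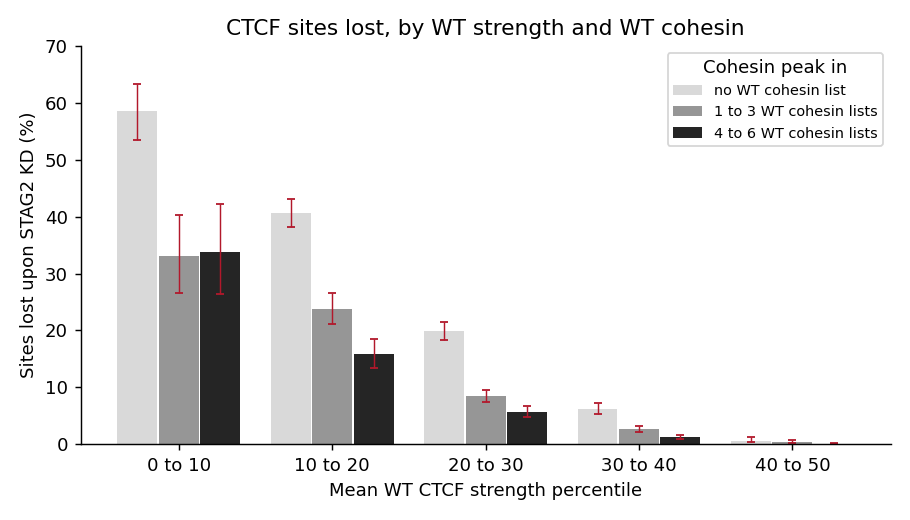
Share of sites in both WT CTCF lists that were lost upon STAG2 KD (y axis, %) in bins of mean WT CTCF strength percentile (x axis), by the number of the 6 WT cohesin lists with a peak there. Bars start at 0 and error bars are 95% Wilson intervals, for counting error only; between percentiles 10 and 20 the shares were 40.6%, 23.7% and 15.8%.

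The lost sites with and without cohesin differed in place more than in CTCF strength. The 1379 sites without cohesin had median folds of 4.83 and 4.01 in the WT lists and the 282 sites with 7 to 12 cohesin lists had 4.68 and 3.9. Of the former 14.9% lay in promoters, 1 kb or less from a transcript start, and of the latter 54.3%. The 757 sites with 1 to 6 lists had 25.5% in promoters. Median GC content about the summit was 51.2% without cohesin and 59.2% with 7 to 12 lists, and the core motif was at 13.1% and 9.22%. At the 552 lost sites in promoters SMC1A was at 31.5% and 53.1% in WT and 30.6% and 49.6% in STAG2-KD, while at the 1125 in introns it was at 6.4% and 21.2% in WT and 5.78% and 15% in STAG2-KD.

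The promoter share of lost sites was close to that of all retained sites and below that of retained sites of like strength. Of all lost sites 22.8% lay in promoters, 6.45% in exons, 46.5% in introns and 24.2% between genes. Among the 2160 lost sites with no STAG2-KD CTCF peak within 500 bp the promoter share was 19.5%. Retained sites as a whole had 21.5% in promoters, and those weighted to the lost sites' WT strength had 33.6%, since the weak retained sites were promoter-rich. Their intron share was 37.1%. Sites kept in 1 STAG2-KD list, weighted in the same way, lay between, with 28.5% in promoters and 42.5% in introns. The median distance of a lost site from a transcript start was 6.04 kb against 6.49 kb for retained sites. Among sites in both WT lists, the share lost ran from 1.58% on chromosome X and 2.15% on chromosome 14 to 4.21% on chromosome 19 and 4.51% on chromosome 22. Under percentile 30 of WT strength, the share was 11.6% on chromosome X and 15.2% to 22.6% on the others. The nearest retained site was a median of 10.5 kb from a lost site, against 10.1 kb from a retained site to another, and 71 lost sites had another lost site within 5 kb.

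The label of these places as CTCF sites was checked against the motif. The core was found at 321 lost sites, or 13.3%, against 2.36% of sequences of the same length 5 kb away and 29.4% of retained sites. Retained sites weighted to the same strength had 14.4%, and gained sites 13.4%. A weight matrix of 20 positions, built from retained sites with the core on even-numbered chromosomes and set to pass 5% of the sequences 5 kb away, was matched on the chromosomes not used to build it at 32.1% of 1376 lost sites, 63.3% of 38486 retained sites and 37.8% after standardisation. A missing match says only that these letters were not in the window. Where the core was present it lay a median of 33 bp from the summit at lost and 20 bp at retained sites, and within 50 bp at 70.1% and 90%. GC content in the 201 bp about the summit averaged 52.8% at lost sites and 55.1% at standardised retained sites, with 5.14 and 7.44 CpG dinucleotides. The sequences 5 kb from lost sites averaged 45.3%. They were not matched for GC content, and the part of base composition in the excess of the core over them was not tested.

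**Figure D5:**
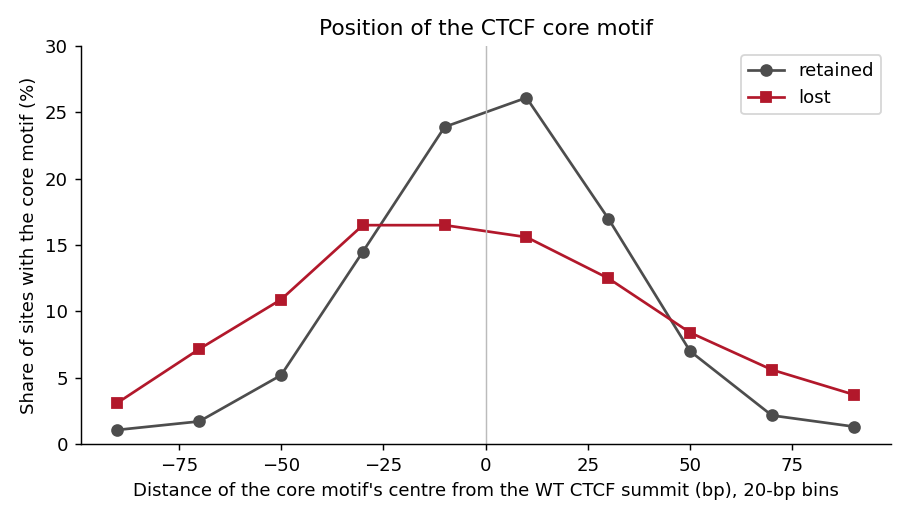
Distance of the core motif's centre from the WT CTCF summit (x axis, bp, bins of 20 bp) as a share of the sites that held it (y axis, %), for 321 lost and 20450 retained sites. The median distance was 33 bp at lost and 20 bp at retained sites.

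Of 20090 protein-coding genes, 1921, or 9.56%, had a lost CTCF site in the gene or within 10 kb, and 1709 of them had 1. The most were 6 at PTPRN2, a gene of 1050 kb, and 5 each at PLCH2 and SOX5. Long genes have more room for a site, so the counts below are read beside the background of 9.56% and no list was tested. Of 20 genes for interferon receptors and signalling 7 had a lost site, or 35%. All 20 had a site of both WT CTCF lists within 10 kb, against 17467 of the 20090 protein-coding genes. Their median length was 47.9 kb against 27.3 kb. The strongest lost site of this list was 2.3 kb from IFNGR2, which encodes a chain of the interferon gamma receptor, at chr21:34773304-34773610. It had CTCF folds of 6.85 and 5.48 and cohesin in 10 lists. USP18, a negative regulator of interferon signalling, held a site in an exon with folds of 5.27 and 3.9, and near-identical copies of this region can share its reads. IRF2, a transcription factor of interferon responses, held a promoter site of folds 4.75 and 3.82, and JAK1, the kinase of interferon receptors, an intron site of folds 4.79 and 3.13. PTPN2, IRF9 and STAT2 were the others.

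Of the 8 loci that the study names, IRF9, ISG15, USP18, IRF7, CD274, DUSP6, STAG1 and STAG2, lost sites were within 10 kb of USP18 and IRF9. The site near IRF9, a transcription factor of type I interferon signalling, was 6.6 kb from that gene in the promoter of RNF31, at chr14:24623655-24623890. It was among the weakest, with folds of 4.22 and 3.25, percentiles of 3.96 and 10.7, and 7 and 9 reads at the summit, and no cohesin list had a peak there. Of 44 interferon-stimulated genes 2 had a lost site, or 4.55%: UBE2L6, an enzyme of ISG15 conjugation, with folds of 6.09 and 5.23, and HERC6, with 6.85 and 6.52. At UBE2L6 STAG2 stood at percentiles 54.6 and 60.7 in WT and was absent from both STAG2-KD lists. Of 18 antigen presentation genes 0 had a lost site within 10 kb, and 0 within 50 kb, where the background over all protein-coding genes was 19.1%. Of these 18 genes 11 had any site of both WT CTCF lists within 10 kb, against 17467 of the 20090 protein-coding genes, and their median length was 16.3 kb against 27.3 kb.

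Among genes of melanoma cells, 3 of 18 melanocyte lineage genes had a lost site, or 16.7%. The site in an intron of MITF, the master transcription factor of melanocytes, at chr3:69941998-69942432, was uneven between replicates, with a fold of 3.59 at percentile 2.44 in the first and a fold of 5.36 at percentile 48.3 in the second. STAG2 stood there at 26.5 and 66.4 in WT and in STAG2-KD replicate 2 alone at 30.5. RAB27A, which serves melanosome transport, held a site of CTCF folds 4.38 and 4.12, at 0.353 kb from a transcript start of ENSG00000276533, where SMC1A stood at percentiles 51.7 and 99.8 in WT and 66.8 and 99.5 in STAG2-KD. The replicates differed at this RAB27A site. STAG2 was in no list of replicate 1, and in replicate 2 it stood at 99.9 in WT and 99.7 in STAG2-KD. TRPM1, a channel gene of melanocytes, held a site without cohesin that lay 0.466 kb from the start of MIR211, a microRNA gene within it. Of genes of the dedifferentiated melanoma state, TNC, a matrix protein gene, held a lost site with a peak in 11 cohesin lists, and the stronger lost site near PDGFRB, a growth factor receptor gene, lay 7.79 kb from the gene and had no cohesin peak. Of 19 MAPK feedback and ERK target genes 1 had one, or 5.26%: ETV1, in its promoter with 10 cohesin lists. MAP2K1 and BRAF, kinases of the same cascade, were the 2 of 21 melanoma drivers and tumour suppressors, and neither site had cohesin. This share, 9.52%, was near the background of 9.56%. The BRAF site was among the weakest lost sites, with folds of 3.34 and 2.52 at percentiles 0.129 and 3.99.

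Of 18 imprinted genes with known CTCF control, MEG3, GRB10 and PLAGL1 had a lost site, or 16.7%. The strongest lost site at each held the core motif, and no cohesin list had a peak at any of them. GRB10, a growth factor receptor adaptor gene, had CTCF folds of 5.19 and 2.85, and the site 5.3 kb from PLAGL1, a zinc finger gene, in an intron of ZC2HC1B, had 6.86 and 5.85. Of 51 clustered protocadherin genes 22 had a lost site, or 43.1%, but these are the gamma genes that share 1 intron before their common exons, and all 22 refer to 1 site, at chr5:140874615-140875050, with folds of 5.84 and 3.73. Likewise the 3 of 39 HOX genes, HOXC4, HOXC5 and HOXC6, refer to 1 site, with folds of 4.21 and 4.99, where SMC1A was in both STAG2-KD lists, at percentiles 12.9 and 47.5, and in neither WT list. Of 23 genes of cohesin and its regulators, PDS5B, a cohesin cofactor, and ESPL1, the protease that opens the ring at anaphase, had a lost site, or 8.7%, neither with a cohesin peak.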

How the data were processed

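ChIP-seq peak lists of CTCF, STAG2, STAG1 and SMC1A from WT and STAG2-KD M14 cells were analysed, 16 in all. Per the study's methods the authors aligned reads to hg19 and called peaks with MACS2 against input, 1 list per library, and the labels name another aligner, BWA, for replicate 2. The deposited columns hold a score, a fold enrichment (a ratio to background), −log10 p-value and −log10 q-value. The score deposited by the authors, 10 times a −log10 q-value in one set and a −log10 p-value in the other, was not used. Lists of replicate 1 held −log10 q-values of at least 2, and those of replicate 2 −log10 p-values of at least 2. Presence and absence at these thresholds is not a test of differential binding. The sets also differ in chromatin extraction and size selection per the labels, so a replicate number marks a shared batch and pairs the libraries, and p-values measure the spread between these libraries, which nothing says came from separate cultures.

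Peaks outside chromosomes 1 to 22 and X were left out, 3.02% to 4.76% of rows in replicate 1 and 0.145% to 0.298% in replicate 2. Fold and p-value of a peak together give its read pileup and background: at least 99.98% of CTCF pileups with −log10 p under 60 came out within 0.005 of a whole read. This gave 20.2, 21.6, 37.4 and 38.5 M reads for CTCF WT and STAG2-KD of replicates 1 and 2, assuming a genome of 2.7 Gb and extensions of 120 and 150 bp, which are not stated. Intervals are Wilson 95% and cover counting error only. Annotation was GENCODE on the same build, and sites were placed by the summit of the stronger WT peak as promoter (within 1 kb of a transcript start), exon, intron or intergenic, in this order. Standardised shares weight 10 strength bins by the lost sites' numbers. Cohesin shares per library were compared by two-sided exact permutation tests with Benjamini-Hochberg adjustment over 3 antibodies.

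Functions were tested on simulated data. The members and gene lists were chosen with earlier results of these data known. Sites named were the 10 strongest in WT, those with all 3 subunits lost, the 10 strongest with STAG1 and SMC1A in both STAG2-KD lists, those within 10 kb of the study's loci, and up to 4 genes per gene list, of which 1 result is not reported here. Genes named beyond these, PTPN2, STAT2, PTPRN2, PLCH2 and SOX5, were chosen after their values were seen. Python 3 with numpy, scipy, pandas and pysam was used.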

Additional observations from a re-analysis of the deposited data

Results flagged for a closer look

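CTCF peaks outside chromosomes 1 to 22 and X entered no comparison. They made up 4.67% of the peaks in WT and 4.76% in STAG2-KD of replicate 1, and 0.271% and 0.298% of those of replicate 2, so that they were more common in the set whose lists name additional contigs. Whether any of them would have been a lost site was not tested.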

How the results depend on the processing

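The number of lost sites depended on the threshold and on the use of 2 replicates. With WT peaks of −log10 q-value of at least 5 it was 708, and the 557 genes within 10 kb, 17.7% promoter share and 15% motif share moved with it. Over the settings without replicate 1 or 2, lost sites ran from 10643 to 20685, genes from 6938 to 9813, the promoter share from 21.3% to 27.9% and the motif share from 9.12% to 13.7%. The promoter share was 19.5% at the 2160 sites with no STAG2-KD CTCF peak within 500 bp, 20.1% with equal numbers of peaks and 34.4% with a window of 2.5 kb. The motif share was 14.8% with equal numbers of peaks and 32.6% with a core 1 base shorter (without its final C), whose share 5 kb away was 11.5%. Within 50 kb lay 3838 genes.

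The STAG1 difference, STAG2-KD minus WT, turned from 0.352 to −0.207 percentage points when peaks had to overlap by 50% of the shorter interval. With the replicate block, an exact sign-flip test of the 2 within-replicate differences, p was 0.5 for STAG2 (−10.6 points) and SMC1A (−3.06) and 1 for STAG1, and the smallest p this test allows is 0.5, so it changed no call. Without 1 replicate, each group has a single library and no test. The differences then ran from −12.9 to −9.56 points for STAG2, from 0.343 to 6.58 for STAG1 and from −3.39 to −0.695 for SMC1A. The STAG1 difference was 1.78 with equal numbers of peaks.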
